A study of Saccharomyces cerevisiae with 18 samples.

Results

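Cryptic unstable transcripts (CUTs) and stable unannotated transcripts (SUTs) are the 2 main catalogues of short non-coding transcripts made by RNA polymerase II in budding yeast. They were taken from the tables as the rows whose name is CUT or SUT followed by a number. The U3 table held 925 CUTs and 847 SUTs, 1772 of 11614 rows. The glucose table of the snR4 experiment listed 827 CUTs and 454 SUTs among 9418 rows, and its ice table listed 832 CUTs and 442 SUTs among 9437 rows. All 1307 names of the snR4 tables, 839 CUTs and 468 SUTs, were also in the U3 table.

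RNA-seq was made from 18 libraries in 6 groups of 3, all from strains derived from the laboratory strain BY4741 and labelled as grown in SD (glucose) medium at 30 °C. All libraries are labelled as poly(A)-selected RNA, while the study also describes rRNA depletion for the U3 libraries, so the selection used there is uncertain. In both U3 groups SNR17B was deleted and SNR17A stood behind a repressible GAL promoter, and the cells carried a centromeric pRS413 plasmid with either a truncated U3 (U3 mutant) or wild type snR17A (U3 wild type control). These cultures had been grown in galactose and moved to glucose to deplete the chromosomal U3. The snR4 experiment compared cells lacking SNR4 with unmodified BY4741, each in glucose and after a short stress in ice-cold PBS. The glucose and ice tables give 1 mean per row over 3 deletion and 3 control libraries, so the snR4 row (110.5 in glucose, 149.3 on ice) cannot check the deletion. In the U3 table SNR17A stood at 9874 and the deleted SNR17B at 134.2 estimated counts, but the copies are near-identical and reads may be split between them. Levels are reads per row, not per length, and are relative to the other RNA of a library, so a fall of most RNA and a rise of a few transcripts cannot be told apart.

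CUTs are transcribed from divergent and intergenic promoters. The Nrd1-Nab3-Sen1 complex terminates them early, the TRAMP complex adds a short poly(A) tail, and the nuclear exosome with its 3′ exonuclease Rrp6 degrades them, so they are scarce in cells with an intact exosome. SUTs escape most of this nuclear route, are visible in wild type cells, and are turned over in part in the cytoplasm. XUTs, a further catalogue, are the transcripts that accumulate when the cytoplasmic 5′ exonuclease Xrn1 is lost.

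The RefSeq annotation of R64, the build named by the submitters, held 9 SUTs and 0 CUTs by name. The sequences below are RefSeq's, 5′ to 3′ on the transcribed strand, with capitals for GTAA and GTAG (RNA motifs bound by Nrd1) and TCTT (bound by Nab3). They are shown because SUT053 is a well-read SUT with another SUT on its opposite strand, SUT035 is the shortest one annotated, and SUT390 was listed in only 1 of the experiments. SUT035 is given whole (177 bases) and the others by their first 100 bases.
SUT053: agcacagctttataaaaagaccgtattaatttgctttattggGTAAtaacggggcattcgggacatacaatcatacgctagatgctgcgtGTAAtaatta
SUT468: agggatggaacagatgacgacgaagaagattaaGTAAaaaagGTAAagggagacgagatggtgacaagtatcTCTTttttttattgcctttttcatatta
SUT035: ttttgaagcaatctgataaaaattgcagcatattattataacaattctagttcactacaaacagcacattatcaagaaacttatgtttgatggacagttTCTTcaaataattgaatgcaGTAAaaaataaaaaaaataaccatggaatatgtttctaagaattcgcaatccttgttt
SUT390: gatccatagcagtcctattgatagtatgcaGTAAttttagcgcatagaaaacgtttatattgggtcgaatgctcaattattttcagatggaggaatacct

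SUT053 lies at chrIV:506334-507774 on the plus strand (1441 bases), and SUT468 at chrIV:506546-507450 on the minus strand (905 bases), wholly inside it. SUT035 lies at chrIII:205766-205942 and SUT390 at chrXVI:52977-53465, both on the plus strand and overlapping no other RefSeq gene. The windows printed for SUT053 and SUT468 held 2 matches to GTAA each. The opposite strand of those windows held 0 matches to GTAA. TCTT matched 1 time in the SUT468 window and 0 times in that of SUT053, and 2 times and 1 time on their opposite strands. Over the full length GTAA matched 15 times in SUT053 and 7 times in SUT468, against 7 and 8 times on the opposite strand. The motifs do not overlap one another in letters in these windows. Among the first 100 bases of 5979 protein-coding sequences, GTAA was present in 27.2%, GTAG in 19.1% and TCTT in 35.7%, and on the opposite strand in 35.7%, 30.2% and 62.8%, so such short matches are common.

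The annotated SUTs differed widely in level. SUT053 had a mean normalised count of 128.3 in glucose and 74.2 on ice, and SUT468, its opposite strand partner, had 2.73 and 4.77. The strand setting of the read counting is not given in the sources used here, so reads of this pair may stand under either name. SUT035 had 4.08 and 4.68. SUT390 reached 239.2 estimated counts in the U3 table and was listed in neither snR4 table. The annotation places SUT169 (7.18 in glucose, 4.84 on ice) opposite SPS100, a sporulation gene, and the remaining SUTs annotated were at 0.702 to 13.5 in glucose where listed.

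By median, CUTs were the lower of both classes in every table. In glucose the median CUT had a mean normalised count of 5.39 and the median SUT 9.38, against 859.0 for protein-coding rows. On ice the medians were 7.95 for CUTs and 8.52 for SUTs, against 800.9. At least 10 normalised counts were reached in glucose by 27.1% of listed CUTs (95% exact interval over rows 24.1 to 30.3) and by 48.7% of listed SUTs (44.0 to 53.4). On ice the shares were 42.1% (38.7 to 45.5) and 46.2% (41.4 to 50.9), so the intervals for CUTs in glucose and on ice were apart and those for SUTs overlapped. These intervals treat rows as draws and cover no library error.

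Summed over rows, CUTs took 0.0544% of all normalised counts in glucose and 0.0824% on ice. SUTs took 0.0800% and 0.0738%. The order of the classes therefore changed between the tables. The 10 highest CUTs held 11.7% of the CUT sum in glucose and the 10 highest SUTs 24.4% of theirs. However, 10 rows are a larger part of 454 SUTs than of 827 CUTs. In the U3 table, with 603 CUTs and 639 SUTs, these shares were 24.4% and 24.7%. The highest CUT in glucose, CUT553 (123.7), lay above 18.6% of protein-coding rows, and the highest SUT, SUT228 (464.3), above 32.4%.

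**Figure D1:**
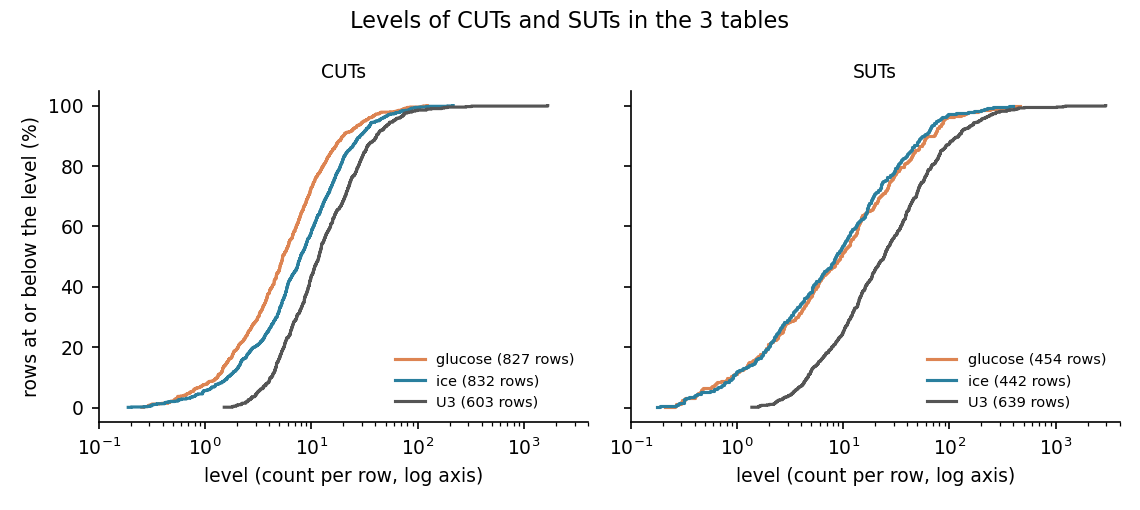
Share of listed CUTs (left) and SUTs (right) at or below each level, in percent, with the level per row on a log axis (mean normalised count in glucose and on ice, geometric mean of estimated counts in the U3 table). The ice curve of CUTs lies to the right of the glucose curve (medians 7.95 and 5.39), while the SUT curves of both conditions run together (8.52 and 9.38).

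The question of glucose against ice is whether the same transcripts were read at other levels after the cold stress. Among rows with a mean of at least 10 over both tables, 77 of 298 CUTs (25.8%) were at least 2-fold higher on ice and 12 (4.03%) at least 2-fold lower, on the log2(count + 1) scale. For SUTs 9 of 218 (4.13%) were higher and 20 (9.17%) lower. Over all 7071 rows 2.86% were at least 2-fold higher and 6.56% at least 2-fold lower. The median log2 ratio was 0.47 for CUTs (95% interval over rows 0.36 to 0.57), -0.18 for SUTs (-0.28 to -0.10) and -0.08 for protein-coding rows. Both tables were normalised apart and each ratio sets 1 pooled mean against another, so these counts carry no test.

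Set against protein-coding rows of the same level, CUTs stood out and SUTs did not. Each row was compared with the median ratio of protein-coding rows in its class of level, classes being 1 log2 unit wide. CUTs were higher by a median of 0.61 on the log2 scale (0.48 to 0.70), and 80.2% of them lay above the protein-coding median of their class. SUTs differed by -0.02 (-0.12 to 0.06), and 48.6% lay above. Protein-coding rows weighted to the levels of CUTs were at least 2-fold higher in 4.61% of cases and lower in 10.6%. For the levels of SUTs these shares were 3.98% and 9.85%, close to those of SUTs themselves.

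The median shift of CUTs was largest among the rows of lowest level. In the class from 7 to 15 counts the median log2 ratio of 119 CUTs was 0.63, against -0.14 for 91 protein-coding rows and -0.23 for 50 SUTs. From 15 to 31 counts it was 0.41 for 129 CUTs, and from 31 to 63 counts 0.13 for 39 CUTs, against -0.10 and -0.17 for protein-coding rows. Among the 11 CUTs from 63 to 127 counts it was -0.06, against -0.20. From 31 to 63 counts 20.5% of CUTs were at least 2-fold higher and 10.3% lower, against 2.72% and 6.80% of protein-coding rows. From 63 to 127 counts the shares of CUTs were 18.2% both ways, against 4.14% higher and 10.1% lower for protein-coding rows. With rows of at least 50 mean counts alone the median of the 24 CUTs left was -0.05, and 29.2% of them were at least 2-fold higher and 20.8% at least 2-fold lower. The CUTs that pass this filter thus spread to both sides, with a median near 0. The filter takes the mean of both tables and so also passes CUTs high in 1 condition alone, such as CUT314 (3.24 and 104.2). Such entry favours large ratios both ways. Of the other classes, 68 snoRNAs had a median of 0.49 with 13 at least 2-fold higher and 0 lower, and 578 XUTs a median of -0.22.

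**Figure D2:**
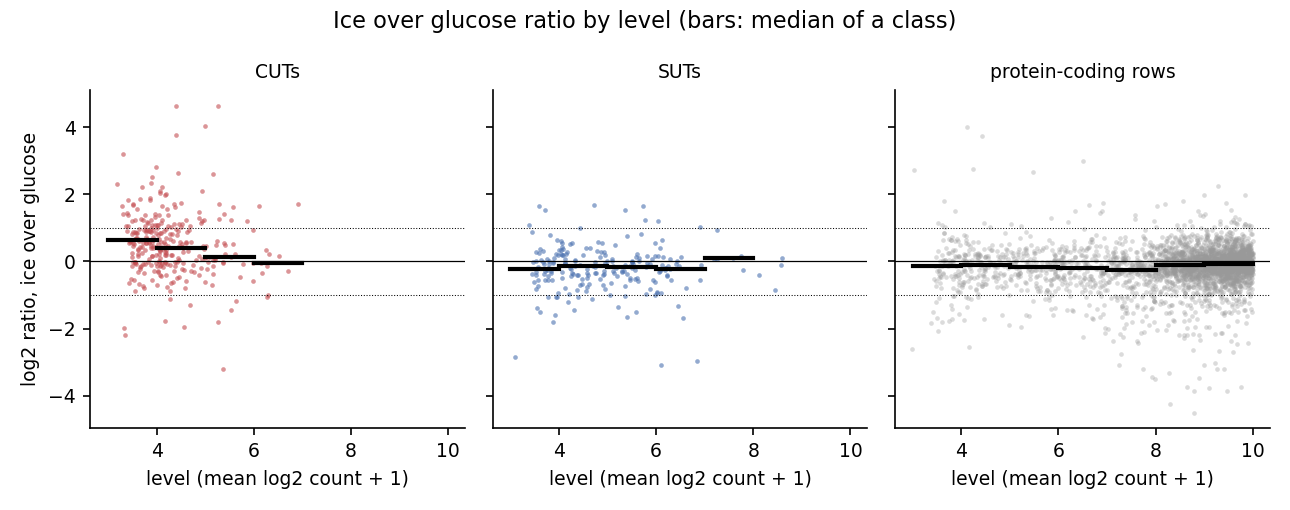
Log2 ratio of ice over glucose (y axis) against level, the mean of both log2(count + 1) values (x axis, shown up to 10), for CUTs, SUTs and protein-coding rows, 1 point per row, with black bars for the median of each class of level holding at least 5 rows and dotted lines at 2-fold. CUT medians fall from 0.63 to -0.06 with level, while SUT and protein-coding medians stay between -0.26 and 0.09 up to a level of 8.

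The pooled means could be split further. Means of low rows fall on sums of 6 fixed steps, each the value of 1 read in 1 library, and 6 steps gave all 425 rows under a mean of 1 in glucose and all 452 on ice (5 steps gave 356 and 321). With these steps 97.3% of glucose rows and 98.9% of ice rows with a mean of at most 50 split into whole reads of 6 libraries in exactly 1 way. The condition of each recovered library is that of its table, but its genotype is not known, and the libraries are numbered here by falling size factor. Rows split in both tables comprised 759 CUTs, 337 SUTs, 1078 XUTs and 897 protein-coding rows. In these rows a library held 2402 to 8497 CUT reads and 1625 to 5680 SUT reads in glucose, and 5685 to 14218 and 2267 to 6249 on ice. Rows of higher mean are left out of these reads. Over all listed rows in glucose, CUTs summed to 7949 normalised counts and SUTs to 11685.

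Ratios of reads within a library do not depend on how a table was scaled. They were taken over the rows split in both tables, each with a mean of at most 50. Protein-coding rows as a whole took 99.4% of all normalised counts in glucose. The ratios to protein-coding reads thus cover only the little-read protein-coding rows. Glucose libraries 1 to 6 had 1.496, 1.48, 1.81, 1.65, 1.62 and 1.48 CUT reads per SUT read. The ice libraries had 2.28, 2.38, 2.44, 2.51, 2.63 and 2.64, all above the highest glucose library. The mean was 1.59 ± 0.131 (SD, n = 6) in glucose and 2.48 ± 0.144 (SD, n = 6) on ice, a 1.56-fold difference (two-sided exact permutation test, p = 0.00216, the smallest that 6 against 6 allows, adjusted p = 0.00361 over 5 ratios). CUT reads per protein-coding read rose 1.47-fold, from 0.673 ± 0.0452 to 0.989 ± 0.0567 (exact permutation p = 0.00216, adjusted p = 0.00361, n = 6 each), and CUT reads per XUT read 1.56-fold, from 0.483 ± 0.0475 to 0.752 ± 0.0421 with the same exact p-values. In all 3 ratios the ice libraries lay above every glucose library.

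SUT reads of the same rows gave no difference that passed after adjustment. SUT reads per protein-coding read were 0.424 ± 0.0121 in glucose and 0.400 ± 0.0239 on ice (SD, n = 6 each), 0.941 times as many, with overlapping libraries (exact permutation p = 0.0476, adjusted p = 0.0595). SUT reads per XUT read were 0.304 ± 0.0152 and 0.304 ± 0.01003 (exact permutation p = 0.998, n = 6 each). This comparison was chosen after the pooled ratios had been seen. Each condition holds 3 deletion and 3 control libraries, and a difference between the preparations of both conditions cannot be told apart from the cold stress.

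Depth moved with the ratio in 1 condition. On ice the CUT reads per SUT read were higher the smaller the size factor of the library (Spearman's rho = -1, Pearson's r = -0.92, exact permutation p = 0.00278 for each, adjusted p = 0.00556 over 2 relations, n = 6, r = -0.85 without the 2 libraries farthest from the median). In glucose there was no such order (rho = -0.09, exact permutation p = 0.919, r = 0.20, exact permutation p = 0.842, n = 6, r = -0.44 without the 2 farthest). Protein-coding reads among these rows ran from 3811 to 13634 per glucose library and from 5794 to 14122 per ice library. The part of depth in the difference between conditions was not tested.

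**Figure D3:**
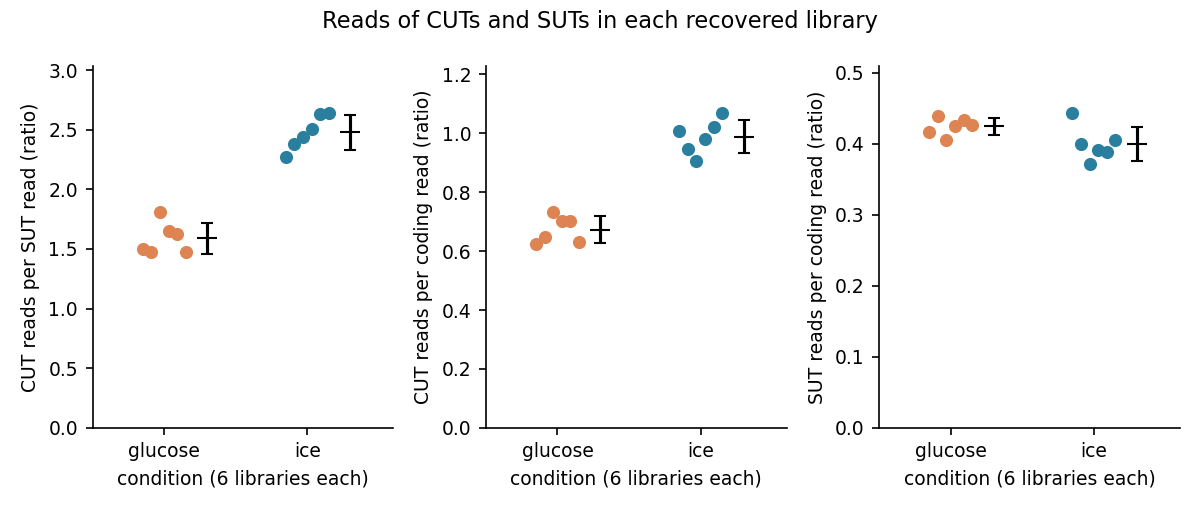
CUT reads per SUT read, CUT reads per protein-coding read and SUT reads per protein-coding read (y axes, ratios) in the 6 recovered glucose and 6 recovered ice libraries, points from left to right by falling size factor, with the mean and SD beside them. The ice libraries lie above all glucose libraries in the first and second ratio (2.28 to 2.64 against 1.48 to 1.81 in the first) and overlap with them in the last. Only reads of rows split in both tables, with means of at most 50, are counted.

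Row by row, all 6 ice libraries lay above all 6 glucose libraries for 100 of 759 CUTs (13.2%) and for 6 of 337 SUTs (1.78%), against 4.27% of all 3417 rows split. All 6 lay below for 8 CUTs (1.05%) and 13 SUTs (3.86%), against 3.04% of all rows. The share of CUTs lay above the background in the first direction (95% exact interval over rows 10.9% to 15.8%) and below it in the second (0.456% to 2.07%). These intervals treat rows as draws, though all rows share the same libraries and cover no library error. The background was not matched on level. CUTs make up 100 of the 146 rows behind the 4.27%, and without CUTs the background is 1.73% and 3.61% of 2658 rows, close to the shares of SUTs in both directions. Protein-coding rows gave 1.56% and 3.01%. Of 18 snoRNAs, 4 (22.2%) lay wholly above and 0 wholly below, so a high share above was not particular to CUTs. A CUT with a mean of at least 10 in both tables had a median SD over the libraries of a condition of 0.42 in glucose and 0.36 on ice on the log2(count + 1) scale, and a SUT 0.35 and 0.36.

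Among these rows, the members with the largest mean log2 differences were looked at after their values were known. CUT137 had 0.633 to 3.78 normalised counts in glucose (median 2.38) and 20.7 to 36.9 on ice (median 29.6). CUT628 had 0 to 13.2 (median 4.30) and 35.9 to 48.7 (median 39.7). CUT003 had 0 to 2.28 (median 1.106) and 9.74 to 33.1 (median 14.3). Each of these CUTs was at or near 0 in some glucose libraries and read in all ice libraries. The largest differences downwards with no overlap were those of CUT321, from 8.87 to 25.1 (median 19.6) in glucose to 0 to 7.31 (median 3.89) on ice, CUT904, from 34.99 to 58.0 (median 45.9) to 4.11 to 15.2 (median 13.4), and CUT851, from 7.44 to 11.4 (median 8.61) to 1.37 to 2.73 (median 1.71).

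Fewer SUTs lay wholly above, and by less. SUT129 had 6.26 to 18.4 normalised counts in glucose (median 14.2) and 39.6 to 61.6 on ice (median 44.0). SUT120 had 2.28 to 11.6 (median 4.78) and 11.98 to 30.2 (median 19.2), with the lowest ice library just above the highest glucose library. SUT284 had 4.56 to 8.70 (median 6.68) and 13.7 to 28.6 (median 20.9). In the other direction SUT060 went from 8.70 to 38.8 (median 21.0) to 0 to 4.51 (median 1.88), SUT220 from 17.0 to 38.8 (median 24.8) to 4.10 to 10.9 (median 6.79), and SUT396 from 18.3 to 34.0 (median 24.4) to 5.48 to 10.9 (median 7.37).

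**Figure D4:**
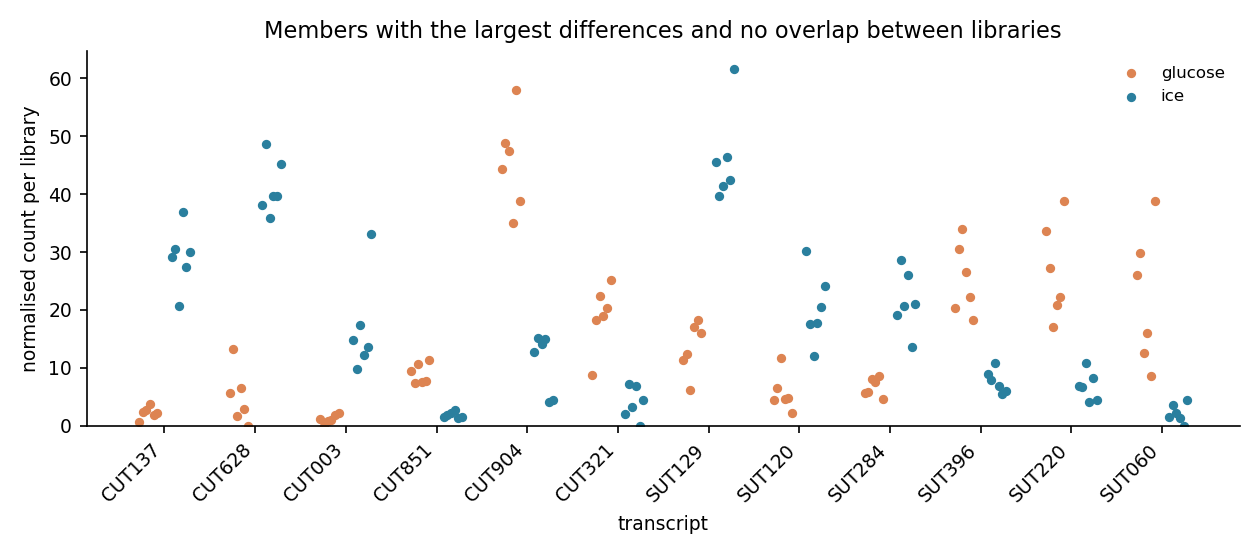
Normalised count (y axis) of 12 CUTs and SUTs in each of 6 glucose and 6 ice libraries, 1 point per library, for the 3 largest differences upwards and downwards of each class among rows whose libraries do not overlap. CUT137 goes from at most 3.78 in glucose to at least 20.7 on ice, and SUT060 from at least 8.70 to at most 4.51.

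Among CUTs with a mean of at least 50 over both tables, a few had far larger ratios than the class. This filter also passes CUTs that are high in 1 condition alone, which favours large ratios. CUT314 had a mean of 3.24 in glucose and 104.2 on ice, a log2 ratio of 4.63 ± 0.32 (approximate counting error), and its glucose libraries lay between 1.90 and 5.37. CUT716 went from 6.77 to 191.6 (4.63 ± 0.22), with glucose libraries between 3.78 and 9.13. CUT715 went from 6.82 to 128.3 (4.05 ± 0.22), with glucose libraries between 0 and 10.6. The ice means of these 3 CUTs were above the limit of the split, so their ice libraries are not shown. The lowest ratios were those of CUT553 (123.7 to 12.5, -3.21 ± 0.17), CUT793 (74.96 to 27.1, -1.43 ± 0.13) and CUT583 (73.7 to 31.9, -1.18 ± 0.12), whose ice libraries spanned 9.13 to 16.4, 21.3 to 34.2 and 16.9 to 51.1.

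The SUTs at the ends of the same ranking moved less upwards and about as far downwards. SUT637 went from 29.1 to 92.8 (log2 ratio 1.64 ± 0.12), SUT298 from 34.4 to 82.2 (1.23 ± 0.12) and SUT584 from 42.1 to 98.8 (1.21 ± 0.10). SUT303 went from 197.5 to 22.6 (-3.07 ± 0.12), with ice libraries from 8.20 to 54.1 and a median of 16.7. SUT647 went from 320.1 to 40.1 (-2.97 ± 0.09), and its ice libraries ran from 20.5 to 82.7 with a median of 34.9. SUT362 went from 168.0 to 51.6 (-1.68 ± 0.09). The errors cover counting only.

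The 5 SUTs and 5 CUTs with the highest mean of both log2 levels were named by rule, a ranking that favours members read at like levels in both tables and so passes over CUT716, CUT553 and SUT647. SUT336 had 370.7 in glucose and 399.2 on ice, SUT111 390.0 and 365.0, SUT315 241.5 and 201.4, SUT020 316.7 and 240.7, and SUT228 464.3 and 257.7. Their log2 ratios lay between -0.85 and 0.11. Of the CUTs, CUT295 had 114.0 and 93.6, CUT792 85.5 and 95.2, and CUT377 72.4 and 84.6. CUT677 went from 65.3 to 216.5, and CUT605 went from 110.4 to 54.2, just past 2-fold (log2 ratio -1.01).

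Over all rows listed in both tables, Spearman's rho between glucose and ice levels was 0.80 for 820 CUTs and 0.95 for 428 SUTs. The rows share their length and sequence between the tables, and these values are descriptions. Of the CUTs listed in 1 table only, 7 were in glucose alone and 12 on ice alone, at means of at most 0.755 and 3.03. The corresponding SUTs numbered 26 and 14, at most 3.53 and 1.46.

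The transcripts of termination and RNA decay factors were measured beside them, 3 termination, 5 TRAMP and 13 exosome genes of the nuclear route of CUTs and 6 genes of cytoplasmic decay. Of these 27 genes, all measured, 22 had a log2 ratio of ice over glucose above 0, with a median of 0.30, and 40.7% of protein-coding rows were above 0. TRF5 and AIR1, a poly(A) polymerase and an RNA-binding subunit of TRAMP, were the 2 of the 27 past 2-fold (7.41%). Both were higher on ice, from 436.3 to 954.0 and from 315.5 to 809.7 normalised counts. Of protein-coding rows 8.04% were past 2-fold in either direction, 1.54% higher and 6.50% lower. MTR4, the TRAMP helicase, went from 4018 to 6223 (log2 ratio 0.63). RRP6 went from 1748 to 2058 (0.24). NRD1, the RNA-binding subunit of the termination complex, was lower on ice, 3159 against 2072 (-0.61). XRN1 stood at 7836 and 8060 (0.04). The 13 exosome genes had a median of 0.38 and ranged from -0.04 to 0.57. Their part in the levels of CUTs was not tested.

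In the U3 experiment the deposited values are a mean and a variance over all 6 libraries. A level was given for 603 CUTs and 639 SUTs, and 322 CUTs and 208 SUTs had none. The median level was 11.8 estimated counts for CUTs and 24.4 for SUTs, against 580.8 for protein-coding rows, and 56.4% of CUTs and 74.96% of SUTs with a level reached 10. Of the SUTs with a level, 233 were listed in neither snR4 table, 155 of these at 10 or more and 29 at 100 or more. The same held for 51 CUTs, 24 of them at 10 or more and 0 at 100 or more.

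The leading members of the U3 table were not those of the snR4 tables. CUT748 was the highest CUT at 1679 estimated counts, while its mean was 5.90 in glucose and 10.1 on ice. CUT601 had 320.9 and CUT281 285.6. SUT508 led the SUTs at 2952 and SUT091 reached 1173, both listed in neither snR4 table. SUT295 reached 1228, with 0.459 in glucose (3 reads in all) and 0.283 on ice (2 reads in all). Reads were assigned by kallisto in the first experiment and by STAR and HTSeq in the second, and the selection of RNA may also have differed. The part of these differences in method was not tested. Spearman's rho between glucose and U3 levels was 0.44 over 549 CUTs and 0.32 over 397 SUTs.

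The variance over the 6 U3 libraries holds the spread between replicates and any difference between mutant and wild type. Among rows of at least 10 estimated counts the median SD was 0.74 log2 units for 340 CUTs and 0.80 for 479 SUTs. Against protein-coding rows of the same level CUTs differed by a median of -0.01 (-0.05 to 0.07) and SUTs by 0.15 (0.11 to 0.23). The part of the variance that repeated quantification of the same reads gives was 29.8% for the median CUT and 32.7% for the median SUT, and with it subtracted the excess of SUTs was 0.02. A difference between 2 groups of 3 can be at most 1.83 times the SD over all 6 libraries. By that bound 88 of the 340 CUTs (25.9%) and 136 of the 479 SUTs (28.4%) differed less than 2-fold between U3 mutant and wild type, against 3818 of 5813 protein-coding rows (65.7%, at higher levels), and for the others the variance alone sets no such limit.

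SUTs held a group of rows with very large spread. An SD of at least 2 log2 units was seen in 72 SUTs (15.03%) and 8 CUTs (2.35%), and in 4.42% and 6.35% of protein-coding rows weighted to the levels of SUTs and CUTs. Of the 72 SUTs, 52 had the SD that 1 library at an estimated count of 0 beside 5 like libraries would give at their mean, or up to 0.3 more, and 8 that of 2 such libraries. Of the 8 CUTs, 5 fitted 1 such library. Of the 50 protein-coding rows with an SD of at least 2, at any level, 16 fitted 1 such library and 1 fitted 2. Which library that would be cannot be read from the table. The median technical SD of the 72 SUTs was 1.27, against 0.37 for the remaining SUTs.

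SUT670 (75.3 estimated counts, SD 3.74), SUT093 (67.2, SD 3.67) and SUT141 (79.7, SD 3.64) had the largest SDs of SUTs with at least 50 estimated counts. CUT025 led the CUTs at 54.3 (SD 3.47), followed by CUT748 (1679, SD 1.97) and CUT897 (69.7, SD 1.704). The technical SDs of SUT670, SUT093, SUT141 and CUT025 were 1.16 to 1.63, and those of CUT897, CUT748 and SUT508 (SD 2.12) were 0.21, 0.04 and 0.03. The most even member named was SUT020, at 201.5 estimated counts with an SD of 0.18, which limits its difference between U3 groups to 0.33 log2 units.

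**Figure D5:**
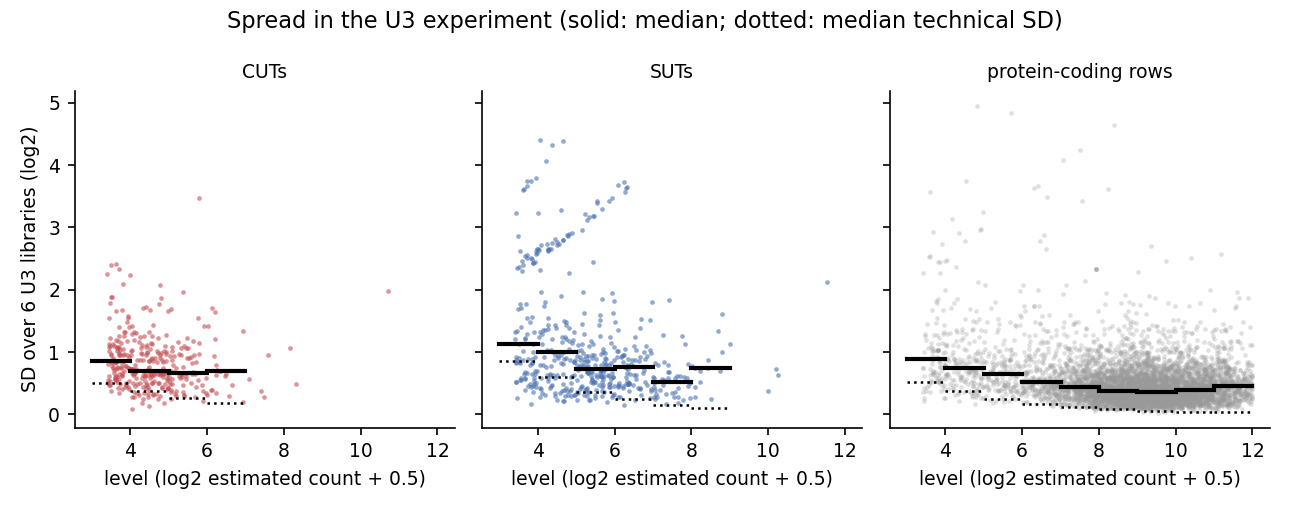
SD over the 6 U3 libraries in log2 units (y axis) against level in log2 estimated counts (x axis, shown up to 12) for CUTs, SUTs and protein-coding rows of at least 10 estimated counts, with solid bars for the median SD and dotted bars for the median technical SD of each class of level holding at least 5 rows. SUTs show a band of points that rises with level above an SD of 2, where 72 SUTs and 8 CUTs lie, while the medians lie between 0.53 and 1.13 for SUTs and between 0.66 and 0.86 for CUTs.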

How the data were processed

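Libraries were grouped by the sample titles. Per the study's methods and labels, the authors quantified the U3 libraries with kallisto and sleuth, and mapped the snR4 libraries with STAR, counted them with HTSeq and normalised them with DESeq2, on build R64 and an Ensembl annotation. The deposited U3 values used were the mean natural log of the estimated count plus 0.5, with its variance and technical variance, which the authors give as scores. The deposited snR4 values are signal: the mean normalised count over the 6 libraries of a table. The remaining columns hold the authors' coefficients or fold changes, their errors, p-values and adjusted p-values, and were not used. The effects of the U3 mutation and of the SNR4 deletion are thus not analysed here. Depth per library is unknown, apart from the reads recovered.

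Ratios were taken on log2(count + 1) for rows with a mean of at least 10, and called at 2-fold. Named members were, by rule, the 5 highest CUTs and SUTs, the 3 highest in U3, the 3 highest and lowest ratios (mean of at least 50) and the 3 largest U3 SDs of each class, with termination and decay genes as a list. Others are named as chosen after seeing values. Members and lists were chosen with earlier results of these data known. Splitting means into whole reads, and the tests on those reads (exact permutation tests, two-sided, Benjamini-Hochberg), were chosen after seeing the data. On 9318 simulated rows, 99.9% of the 3607 rows searched split in 1 way, 100% of these correctly. The methods mention separate transformants, and the labels say nothing of separate cultures, so p-values measure only the spread between these libraries, which may be technical. Calculations used Python 3.11.15 (scipy 1.17.1, numpy 2.4.6, numba 0.67.0, pandas 2.3.3) and drawings matplotlib 3.10.9.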

Additional observations from a re-analysis of the deposited data

Results flagged for a closer look

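The 55 sets of 6 recovered libraries looked at share libraries and are not independent. Of them 3 held a library that stood apart from the other 5, near the rate of about 1 set in 20 that chance flags. All 3 were ice library 6, the one with the smallest size factor and the highest CUT reads per SUT read (2.64), which had 82.7 normalised counts of SUT647, 33.1 of CUT003 and 61.6 of SUT129. Without this library CUT reads per SUT read were 1.54 times as many on ice as in glucose.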

How the results depend on the processing

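Of 98 alternative values, 57 stayed within the 95% interval or tolerance of the reported value, 40 moved and 1 reversed. The reversed value is the median CUT log2 ratio of ice over glucose with rows of at least 50 mean counts, -0.0485 over 24 CUTs. With that filter the difference of CUTs from protein-coding rows of the same level was 0.16, and 20.8% of CUTs were at least 2-fold lower. Without a filter the median CUT ratio was 0.35, the difference 0.46 and the share at least 2-fold higher 20.6%. A pseudocount of 5 gave 17.4% higher. With both tables scaled to 1 sum the share was 31.5% and the medians were 0.58 for CUTs and -0.0691 for SUTs. At a fold of 1.5, 41.9% of CUTs were higher and 8.72% lower, and 8.72% of SUTs higher and 21.1% lower. The difference of SUTs from protein-coding rows of the same level stayed within its interval under all 9 of its alternatives. Levels depend on the threshold by construction. At 1, 50 and 100 counts the shares were 92.4%, 2.18% and 0.484% for CUTs and 88.3%, 14.5% and 3.74% for SUTs in glucose, 94.4%, 3.61% and 0.601% for CUTs and 88.0%, 12.2% and 2.71% for SUTs on ice, and 100%, 6.97% and 1.49% for CUTs and 100%, 28.6% and 12.5% for SUTs in U3. The difference in U3 SD from protein-coding rows was 0.12 for CUTs at 50 or more and 0.31 with no matching, and for SUTs 0.0169 with technical variance subtracted, 0.26 with no filter and 0.37 with no matching. Among rows of at least 10 in both tables, rho between glucose and ice was 0.53 for CUTs and 0.84 for SUTs, and between glucose and U3 0.31 and 0.44. In the recovered libraries, CUT reads per SUT read remained 1.54 to 1.603 times as many on ice with any 1 library left out, and CUT reads per protein-coding read 1.45 to 1.49 times. Restricting rows to means of at most 10 gave 1.46 and 1.33, and to at most 25, 1.49 and 1.45. No paired analysis was possible because the tables carry no replicate numbers and the recovered libraries carry no labels. Libraries could not be left out of the pooled means.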
